A study of Mus musculus with 30 samples.

Results

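The genes described here encode 7 subunits of the GABA-A receptor, Gabra2, Gabra3, Gabra4, Gabrb1, Gabrb2, Gabrd and Gabrg3, in primary visual cortex (V1) of mice at postnatal day 14 (P14), 28 (P28) and 60 (P60). Members were all probe sets to which the array annotation gives one of these symbols and no other gene. They comprise 7 of 15964 genes and 18 of 36899 probe sets. Each litter was hybridised to 3 Affymetrix chip types, MG-U74Av2, MG-U74Bv2 and MG-U74Cv2 (chips A, B and C), giving 30 arrays from 10 litters, of which 3 were aged P14, 3 P28 and 4 P60. All mice had standard rearing and no treatment is named, so the groups differ in the labels only by age. The sources used here do not state the strain, the sex or how many animals made up a litter. The RNA came from dissected tissue, so a value sums over all cells of V1, and fewer cells of a type cannot be told apart from less RNA per cell.

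GABA-A receptors are pentameric chloride channels that open when GABA, the main inhibitory transmitter of the cortex, binds at the junction of an alpha and a beta subunit. The alpha subunit sets kinetics and much of the drug response. A gamma subunit brings the receptor to the synapse and completes the benzodiazepine site, whereas a delta subunit takes its place in receptors outside the synapse, which carry tonic inhibition and which in forebrain often hold alpha 4. In the rodent cortex the subunit mix is known to shift after birth, and inhibition through these receptors is known to bear on the timing of the critical period for ocular dominance plasticity in V1.

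3 of the 7 genes lie together on chromosome 5, where Gabra4 and Gabrb1 are annotated on opposite strands with overlapping 5′ ends. Gabra2 lies in the same cluster next to Gabrg1. Of the others, Gabrb2 lies on chromosome 11 next to Gabra6, Gabrg3 on chromosome 7 next to Gabra5, Gabra3 on chromosome X next to Gabrq, and Gabrd stands apart from other receptor genes on chromosome 4. The promoters of the 3 chromosome 5 genes are shown as those of genes in the same cluster. Gabra2 and Gabra4 each had a probe set whose P14 signals all lay above those of P28, unlike their other probe sets, and Gabrb1 had none. Over all probe sets tested, P14 and P28 did not overlap in 17.9%. None of these genes passed for P28 against P14 with all litters, and a difference between the genes was not tested. Each window runs from 250 bases before the annotated start to 50 after it, 5′ to 3′ on the strand of the gene, from RefSeq on GRCm38.p6. The Gabra4 window is chr5:71658259-71658558 on the minus strand, the Gabrb1 window chr5:71657671-71657970 on the plus strand and the Gabra2 window chr5:71095800-71096099 on the minus strand. Another Gabrb1 window, at a different annotated start, had a GC content of 50.3% and is not shown. Capitals mark GC boxes, GGGCGG or its reverse complement CCGCCC.
Gabra4: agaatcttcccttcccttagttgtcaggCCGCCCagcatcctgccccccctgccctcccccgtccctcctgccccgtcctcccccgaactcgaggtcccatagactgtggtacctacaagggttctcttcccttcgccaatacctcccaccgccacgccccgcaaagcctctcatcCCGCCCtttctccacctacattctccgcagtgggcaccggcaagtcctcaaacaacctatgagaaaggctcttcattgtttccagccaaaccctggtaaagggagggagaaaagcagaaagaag
Gabrb1: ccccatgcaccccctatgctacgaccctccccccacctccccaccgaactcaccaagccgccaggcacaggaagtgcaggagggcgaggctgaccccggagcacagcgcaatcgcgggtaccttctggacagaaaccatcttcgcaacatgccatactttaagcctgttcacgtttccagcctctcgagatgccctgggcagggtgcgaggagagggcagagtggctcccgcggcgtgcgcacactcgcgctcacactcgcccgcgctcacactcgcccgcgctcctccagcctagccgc
Gabra2: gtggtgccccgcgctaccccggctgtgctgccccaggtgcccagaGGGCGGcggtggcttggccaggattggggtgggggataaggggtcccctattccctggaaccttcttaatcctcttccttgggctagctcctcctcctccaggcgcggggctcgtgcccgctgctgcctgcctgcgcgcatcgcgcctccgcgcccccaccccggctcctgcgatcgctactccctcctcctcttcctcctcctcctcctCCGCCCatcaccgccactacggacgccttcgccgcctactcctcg
The Gabra4 and Gabra2 windows held 2 GC boxes each and the Gabrb1 window held none. GC boxes were found in 35.7% of the 32851 promoter windows of the RefSeq table. The GC content was 58.7% for Gabra4, 66% for Gabrb1 and 70% for Gabra2, against a median of 52.7% over all windows. Among the other letters searched on both strands, TATAAA (13.6% of all windows), TGACG (20.8%) and GTGGGCG (7.97%) were in none of these 3 windows, and CANNTG (72.3%) was in that of Gabra2 only. The table matched 6 members with 10 windows. Gabrb2 had TATAAA 30 bases before 1 of its starts, and a GC box and TGACG in the same window. Both Gabra3 windows overlapped and held the same TATAAA, read on the opposite strand, and the single Gabrg3 window held 1 GC box. Gabrd was not matched. These matches describe the letters of the windows only.

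Signals were the deposited MAS5 intensities, which on every array had a trimmed mean of about 500 units. The level of a probe set depends on its own probes, so levels are compared between ages and not between probe sets. A probe set was tested if it exceeded the median of its chip (207, 252 and 183 units on chips A, B and C) on at least 3 arrays. This held for 20724 probe sets, among them 16 of the 18 for the subunits. The 16 cover 6 of the 7 genes; Gabra3 had no tested probe set. As a gauge of unspecific signal, the 95th percentile of 15 probe sets for Bacillus genes was 98.4, 153 and 252 units on the 3 chips in turn. P14 litter 1 stood apart. The ratio of its 3′ to 5′ signal for the control gene Gapdh was 9.57 to 12.2 and for Actb 12.2 to 12.8 on its 3 arrays, against 0.741 to 1.32 and 1.04 to 1.5 on the other 27. Values without it are therefore set beside those with it.

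With all 10 litters, none of the 16 probe sets differed between ages at an adjusted p of 0.05 in limma with Benjamini-Hochberg adjustment over all probe sets tested. This was 0 of 16 for P28 against P14 (0.00483% of all probe sets tested), 0 of 16 for P60 against P28 (0%), 0 of 16 for P60 against P14 (0.396%) and 0 of 16 over the 3 ages together (0.111%). An unadjusted p under 0.05 was reached by 2, 1 and 4 of the 16 in the 3 pairwise comparisons (7.87%, 5.43% and 15.7% of all probe sets). The 4 in P60 against P14 were lower for Gabra2, Gabra4 and Gabrb2 and higher for Gabrd. The signals of P14 and P28 did not overlap for 4 of 16 (17.9% of all), those of P14 and P60 for 3 of 16 (13%) and those of P28 and P60 for 0 of 16 (8.36%). Over the 16 the median log2 change from P14 to P60 was -0.08, with 7 higher and 9 lower, against a median of 0.06 over all probe sets. None of these counts was as many as 2 probe sets away from what the share over all probe sets gives for 16.

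Without P14 litter 1, 1 of 16 passed for P60 against P14, a Gabra4 probe set that was lower at P60, and 2.4% of all probe sets did. The members that passed were 0 of 16 for P28 against P14 (0.125%) and 0 of 16 for P60 against P28 (0.00483%); unadjusted p under 0.05 was reached by 2 (10.3% of all) and 1 (9.08%) of them. Signals of P14 and P28 then did not overlap for 6 of 16 (37.6% of all), and those of P14 and P60 for 5 of 16 (28.8%). With limma's array weights, which were 0.105 to 0.354 for P14 litter 1 and 0.342 to 5.31 for the other arrays, 2 of 16 passed for P28 against P14 (5.61% of all) and 3 of 16 for P60 against P14 (17.5%), all lower at the later age, and 2 of 16 over the 3 ages together (14.6%). They were probe sets of Gabra4 and Gabra2, as given below. In a restricted set that also left out 3 P60 litters, each on 1 or 2 chips, 0 of 16 passed for P60 against P14 in limma (2.13% of all), with 4 at an unadjusted p under 0.05 (18.1%).

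**Figure D1:**
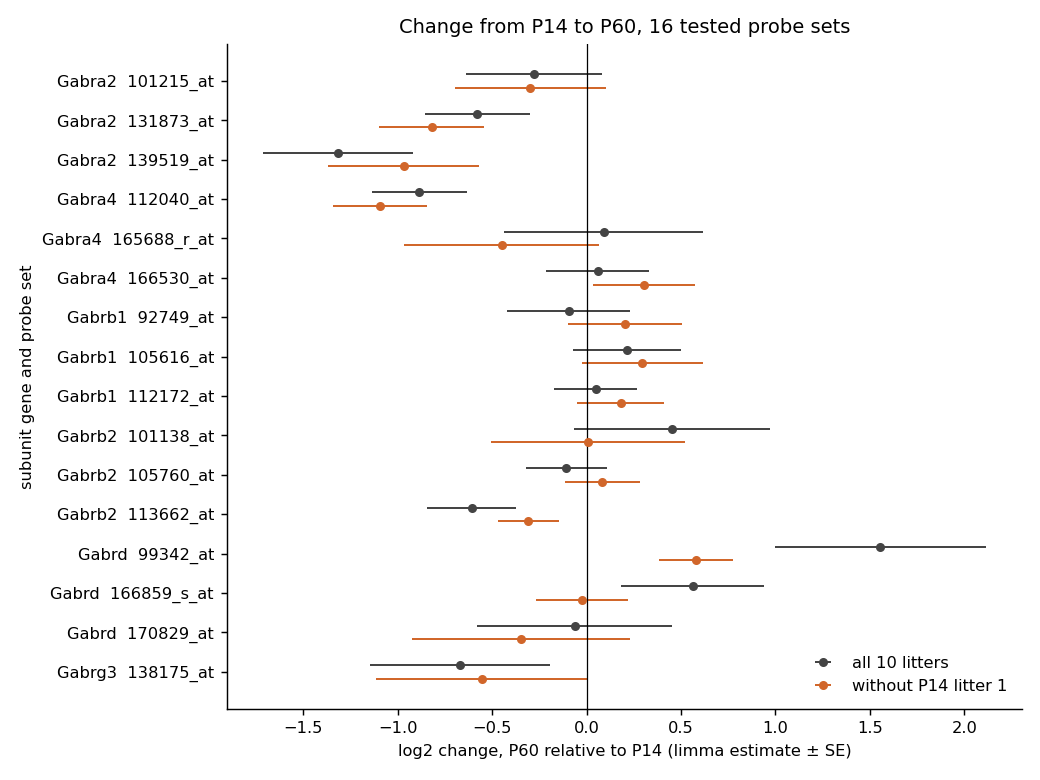
Log2 change from P14 to P60 for each of the 16 tested probe sets, with its standard error, with all 10 litters and without P14 litter 1. The estimate for Gabrd 99342_at moves from 1.56 to 0.58 when that litter is left out, and Gabra4 112040_at moves from -0.89 to -1.09.

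The alpha 4 subunit, the usual partner of delta in forebrain, had the smallest p of the 16 for P60 against P14, in 1 of its 3 probe sets. On chip B, Gabra4 112040_at read 624, 966 and 1017 units in P14 litters 1 to 3, 418, 420 and 598 in P28 litters 1 to 3, and 428, 363, 647 and 348 in P60 litters 1 to 4. All P14 litters lay above all P28 litters, and only P60 litter 3 lay above the lowest P14 litter, which was litter 1. Means were 869 ± 214 (SD, n = 3), 479 ± 103 (SD, n = 3) and 446 ± 138 (SD, n = 4). The log2 change from P14 to P28 was -0.78 (SE 0.269, adjusted p = 0.476, limma) and from P14 to P60 -0.89 (SE 0.251, adjusted p = 0.134, limma), a 1.85-fold lower level at P60 that did not pass. Without P14 litter 1 the P60 level fell by 1.09 on the log2 scale (SE 0.251, adjusted p = 0.0479, limma), with 2 P14 litters left, both above every P60 litter. In this setting the change from P14 to P28 was -0.98 (adjusted p = 0.192, limma) and that from P28 to P60 -0.11 (adjusted p = 0.898, limma), and neither passed. The 20 settings run share most litters. Several leave a change between ages as it was by construction, because they alter only the spread estimate or the adjustment. Across the 20, this probe set was lower at P60 than at P14 in 20, with adjusted p from 0.00202 to 0.303 in limma, and passed in 2 of them. The other was the fit with array weights, where it also passed for P28 against P14 (log2 change -0.97, adjusted p = 0.00567, limma).

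The other Gabra4 probe sets, both on chip C, did not show this. Gabra4 166530_at read 1253, 697 and 775 units at P14, 997, 747 and 659 at P28 and 1014, 1200, 769 and 754 at P60, so that the ages overlapped throughout. Its log2 change from P14 to P60 was 0.06 (SE 0.273, adjusted p = 0.931, limma), and 0.30 without P14 litter 1 (adjusted p = 0.571, limma). Gabra4 165688_r_at averaged 245 ± 146 (SD, n = 3), 372 ± 137 (SD, n = 3) and 272 ± 202 (SD, n = 4) units, close to the Bacillus gauge of its chip. Its litters ranged from 76.9 units in P14 litter 1 to 552 in P60 litter 2, and its log2 change to P60 was 0.09 with all litters (adjusted p = 0.945, limma) and -0.45 without P14 litter 1 (adjusted p = 0.668, limma). The lower Gabra4 signal at P60 therefore rests on a single probe set of 3.

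Gabra2 encodes the alpha 2 subunit, known as an early subunit of forebrain synapses and of the axon initial segment of pyramidal cells. The brightest of its 3 probe sets, 139519_at on chip C, read 28254, 12319 and 15149 units at P14, 9468, 8567 and 10342 at P28 and 7974, 3017, 11453 and 8464 at P60. Every P14 litter was above every later litter, with P14 litter 1 the highest of all and P60 litter 2 the lowest. Means were 18574 ± 8502 (SD, n = 3), 9459 ± 887 (SD, n = 3) and 7727 ± 3496 (SD, n = 4), and the P60 level was 2.49-fold lower than at P14 (log2 change -1.32, SE 0.398, adjusted p = 0.149, limma). Without P14 litter 1 the log2 change was -0.97 (adjusted p = 0.218, limma), and in the restricted set it was -0.57, a 1.49-fold lower level (adjusted p = 0.151, limma). A second Gabra2 probe set on the same chip, 131873_at, read 804, 1116 and 1657 units at P14, 829, 567 and 785 at P28 and 655, 1013, 690 and 691 at P60. Its P14 litters 2 and 3 lay above all later litters and P14 litter 1 lay among them. The log2 change from P14 to P60 was -0.58 with all litters (adjusted p = 0.332, limma) and -0.82 without P14 litter 1 (adjusted p = 0.136, limma). Both were thus lower on average at the later ages in every setting run, in 20 of 20, and neither passed with all litters weighted equally. With array weights the levels at P60 fell by 0.95 for 139519_at (adjusted p = 0.0264, limma) and by 0.92 for 131873_at (adjusted p = 0.0220, limma) on the log2 scale, and adjusted p over the 20 settings reached up to 0.273 and 0.638.

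The third Gabra2 probe set, 101215_at on chip A, read 584, 545 and 679 units at P14, 367, 279 and 708 at P28 and 419, 288, 928 and 494 at P60. The highest litter of both later ages exceeded all of P14, and the lowest was below all of it. The log2 change to P60 was -0.28 (SE 0.360, adjusted p = 0.733, limma) and -0.30 without P14 litter 1. On average this probe set too was lower at P28 and at P60 than at P14 in 20 of 20 settings, and it passed in none. Gabra3 encodes the alpha 3 subunit, which is high early in cortical development and falls in the adult cortex. Its 94645_at read 12.5, 213 and 175 units at P14, 24.9, 64.3 and 69.1 at P28 and 56, 42.4, 136 and 99.4 at P60. The means at P28 (52.8) and P60 (83.4) lay below the Bacillus gauge of chip A and only P14 litter 2 exceeded the chip median, so it was not tested. The 2 P14 litters with even 3′ to 5′ ratios were above every later litter, and P14 litter 1 was the lowest array of all.

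**Figure D2:**
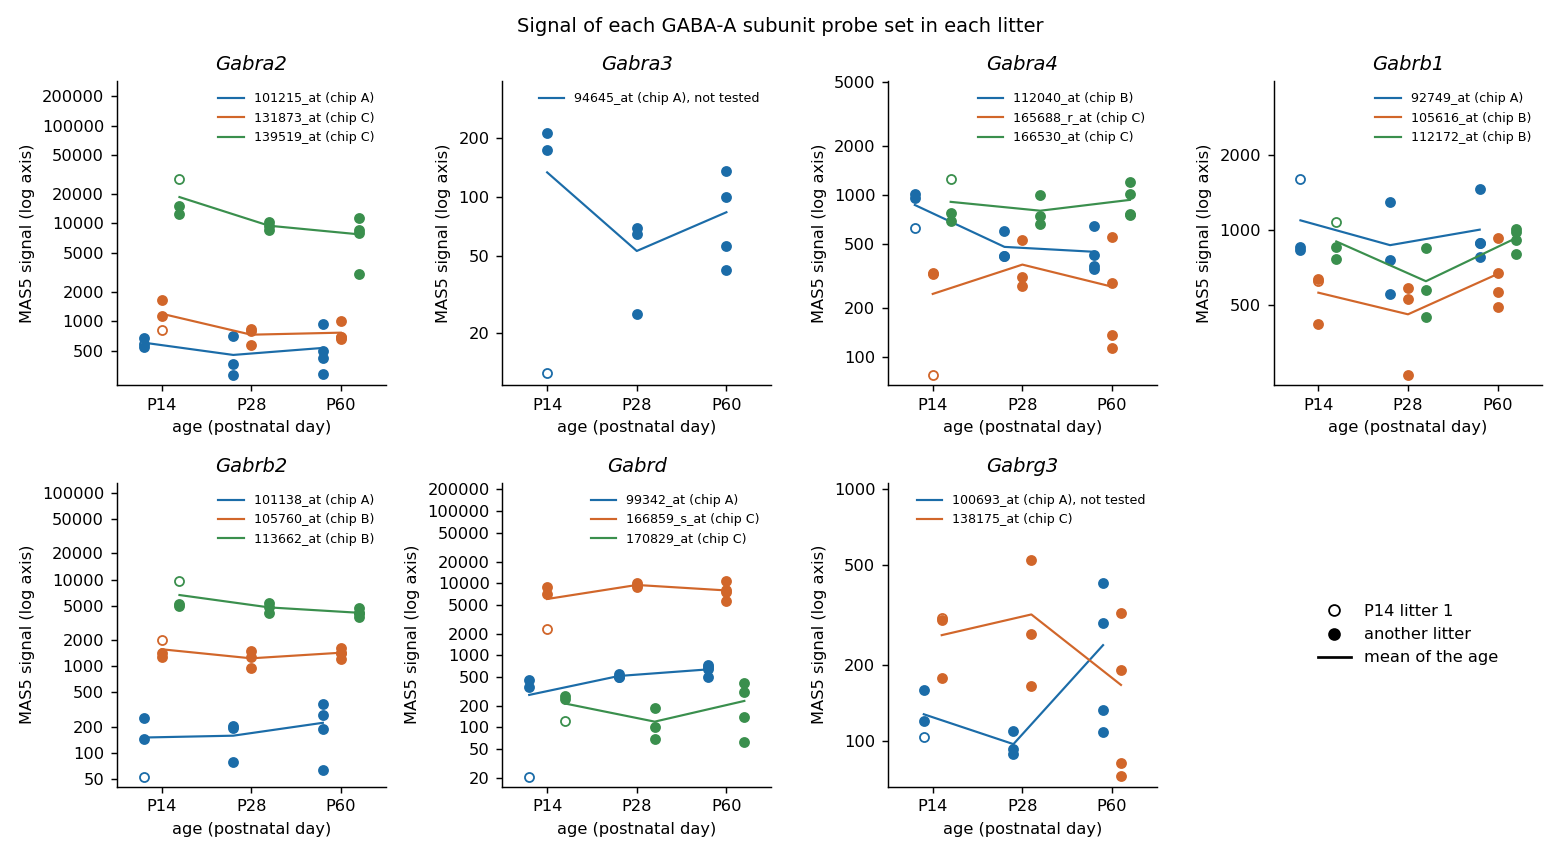
MAS5 signal of member probe sets by litter at P14, P28 and P60 on a log axis, with P14 litter 1 marked. For Gabra4 112040_at the P14 litters sit at 624 to 1017 and the P60 litters at 348 to 647, and for Gabrd 99342_at P14 litter 1 sits at 20.6 against 366 to 724 in the others.

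Beta subunits form the other face of the GABA site and are needed to assemble the receptor. Gabrb1 (beta 1) had 3 tested probe sets, and none passed in any of the 20 settings. On chip B, 112172_at read 1082, 768 and 854 units at P14, 449, 574 and 851 at P28 and 801, 916, 1012 and 982 at P60. P28 had the 2 lowest litters and P28 litter 3 lay within the other ages. The log2 change was -0.52 from P14 to P28 (adjusted p = 0.624, limma) and 0.57 from P28 to P60 (adjusted p = 0.894, limma). The mean at P28 was also the lowest of the 3 ages for 105616_at, at 460 ± 174 units (SD, n = 3) against 562 ± 122 (SD, n = 3) at P14 and 668 ± 193 (SD, n = 4) at P60, and for 92749_at, at 871 ± 382 (SD, n = 3) against 1095 ± 437 (SD, n = 3) and 1005 ± 308 (SD, n = 4). Litters of different ages overlapped in both. The log2 changes from P14 to P60 were -0.10 for 92749_at, 0.21 for 105616_at and 0.05 for 112172_at, with adjusted p from 0.746 to 0.930 in limma. Without P14 litter 1 they were 0.20, 0.29 and 0.18 (adjusted p from 0.652 to 0.752, limma), so the first turned in direction.

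Gabrb2 encodes beta 2, the most widespread beta subunit of the adult brain. Its brightest probe set, 113662_at on chip B, read 9629, 5242 and 5016 units at P14, 4149, 4829 and 5343 at P28 and 4071, 4076, 4678 and 3738 at P60. All P60 litters lay below all P14 litters, and P14 litter 1 was the highest of all. The log2 change from P14 to P60 was -0.61 (SE 0.236, adjusted p = 0.246, limma) with all litters and -0.31 (adjusted p = 0.321, limma) without P14 litter 1. Gabrb2 105760_at averaged 1573 ± 400 (SD, n = 3), 1238 ± 270 (SD, n = 3) and 1435 ± 169 (SD, n = 4) units, with overlap between all ages (log2 change to P60 -0.11, adjusted p = 0.832, limma; 0.08 without P14 litter 1, adjusted p = 0.849). The dim 101138_at on chip A ranged from 53.2 to 365 units, with litters below the Bacillus gauge at each age, and its change to P60 was 0.45 (adjusted p = 0.696, limma) and 0.01 without P14 litter 1. No Gabrb2 probe set passed in any of the 20 settings.

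The delta subunit Gabrd was the member in which P14 litter 1 weighed most. On chip A, 99342_at read 20.6, 366 and 462 units at P14, 504, 502 and 546 at P28 and 724, 681, 507 and 646 at P60. Every P14 litter was below every later litter, and P28 and P60 overlapped through P60 litter 3. The 20.6 units of P14 litter 1 lay below the Bacillus gauge of 98.4, so its log2 value rests largely on the added constant of 38.6. With all litters the mean was 283 ± 232 (SD, n = 3) at P14, 518 ± 24.3 (SD, n = 3) at P28 and 640 ± 94 (SD, n = 4) at P60. The log2 change from P14 to P60 was 1.56 (SE 0.561, adjusted p = 0.222, limma). The change was 0.58 without P14 litter 1 (SE 0.195, adjusted p = 0.133, limma), where the 2 remaining P14 litters averaged 414 units. This probe set was higher at P60 in 20 of 20 settings, with adjusted p from 0.0776 to 0.388.

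A second Gabrd probe set, 166859_s_at on chip C, read 2299, 7033 and 8806 units at P14, 10043, 8874 and 9472 at P28 and 10759, 5608, 7459 and 7954 at P60. P28 lay above all of P14, and P60 spanned both. Its log2 change from P14 to P60 was 0.56 with all litters (SE 0.378, adjusted p = 0.483, limma) and -0.02 without P14 litter 1 (adjusted p = 0.969, limma). In that litter Gabrd was below the mean of the other P14 litters in all 3 probe sets. The log2 difference was -2.93 for 99342_at, -1.76 for 166859_s_at and -0.85 for 170829_at, at percentiles 0.873, 4.81 and 16.3 of all tested probe sets. The third set, 170829_at, had a mean below the Bacillus gauge of chip C at each age and gave a log2 change of -0.06 (adjusted p = 0.962, limma) and -0.35 without P14 litter 1 (adjusted p = 0.782, limma).

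Gabrg3 encodes gamma 3, a less common gamma subunit. Gabrg3 138175_at on chip C read 309, 302 and 179 units at P14, 266, 166 and 522 at P28 and 191, 72.8, 322 and 82.2 at P60. All ages overlapped, and only the P60 mean of 167 ± 117 (SD, n = 4) lay below the Bacillus gauge of 252. The log2 change from P14 to P60 was -0.67 (SE 0.476, adjusted p = 0.507, limma) and -0.56 without P14 litter 1 (adjusted p = 0.620, limma). Gabrg3 100693_at on chip A was not tested: it exceeded the chip median on 2 arrays, P60 litters 1 and 4, at 424 and 294 units, and read 89.3 to 159 units in the other litters. The probe sets did not rank the P60 litters alike: litters 1 and 4 were the highest in 100693_at, and litter 3 was the highest in 138175_at.

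The balance between subunits was measured within each litter as the log2 ratio of 2 genes, each represented by its kept probe set, for 6 pairs. A change in such a ratio with age does not need the levels of different probe sets to be comparable. With all litters and the kept probe sets, Gabrd relative to Gabra4 was the 1 pair of 6 that passed, and it lost this call in most alternatives run. The log2 ratio was -3.53, -1.34 and -1.10 in P14 litters 1 to 3, 0.19, 0.18 and -0.17 in P28 litters 1 to 3 and 0.65, 0.77, -0.37 and 0.76 in P60 litters 1 to 4. All P14 litters were below all later ones, with means of -1.99 ± 1.34 (SD, n = 3), 0.07 ± 0.20 (SD, n = 3) and 0.45 ± 0.55 (SD, n = 4). The means differed by 2.44 from P14 to P60, of which 2.06 lay between P14 and P28 (exact permutation test of the 3 ages over 4200 assignments, p = 0.00571, adjusted over the 6 pairs 0.0343). The value of -3.53 rests on the Gabrd signal below the Bacillus gauge and so on the added constant, and it enters the P14 mean and the difference. The difference was 1.68 without P14 litter 1, and the exact permutation test then gave p = 0.0143, adjusted 0.0857. Leaving out 1 litter at a time, the pair passed only without P60 litter 3. Its adjusted exact p was 0.333 with the litter number as a block, 0.5 in the restricted set and 0.69 with the mean of all tested probe sets of each gene. The block and the restricted set allow too few distinct assignments for 1 pair alone to reach an adjusted p under 0.05. A lost call there was thus fixed in advance. The brighter Gabrd and Gabra4 probe sets, 166859_s_at and 166530_at, gave a difference of 0.50 with an adjusted exact p of 0.538.

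The other 5 pairs did not pass. Gabra4 relative to Gabra2 was 0.51 ± 0.35 (SD, n = 3) at P14, 0.21 ± 0.39 (SD, n = 3) at P28 and -0.10 ± 0.39 (SD, n = 4) at P60 (exact permutation test, adjusted p = 0.36). This difference of -0.61 from P14 to P60 turned in direction with other probe sets. It was 0.48 with the mean of tested probe sets (adjusted exact p = 0.738) and 1.38 with the brightest probe set of each gene (adjusted exact p = 0.5). Gabrb2 relative to Gabrb1, with the dim Gabrb2 101138_at, was -2.67 ± 1.34, -2.19 ± 0.43 and -2.12 ± 1.22 at the 3 ages (exact permutation test, adjusted p = 0.946). Its difference from P14 to P60 was 0.55, and other probe sets gave the opposite direction. It was -0.51 with the brightest probe set of each gene (adjusted exact p = 0.538) and -0.14 with the mean of tested probe sets (adjusted exact p = 0.762). Gabrd relative to Gabrg3, a delta against a gamma subunit, was -0.39 ± 1.95, 0.74 ± 0.66 and 1.83 ± 0.93 (exact permutation test, adjusted p = 0.353). It was lowest in P14 litter 1, at -2.58, and without that litter the P14 mean was 0.70 and the difference from P14 to P60 went from 2.23 to 1.14. The pairs with Gabra3, taken from its dim probe set, differed from P14 to P60 by -0.62 for Gabra4 and -0.01 for Gabra2 (adjusted exact p = 0.594 and 0.946). Without P14 litter 1 the differences from P14 to P60 were -0.80 for Gabra4:Gabra2, -0.10 for Gabra4:Gabra3 and 0.69 for Gabra2:Gabra3, and that of Gabrb2:Gabrb1 turned from 0.55 to -0.20. None of these 5 pairs passed in that setting either (adjusted exact p from 0.288 to 0.964). With all litters, in each of these pairs the range over the litters of 1 age was wider than the shift between the means.

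**Figure D3:**
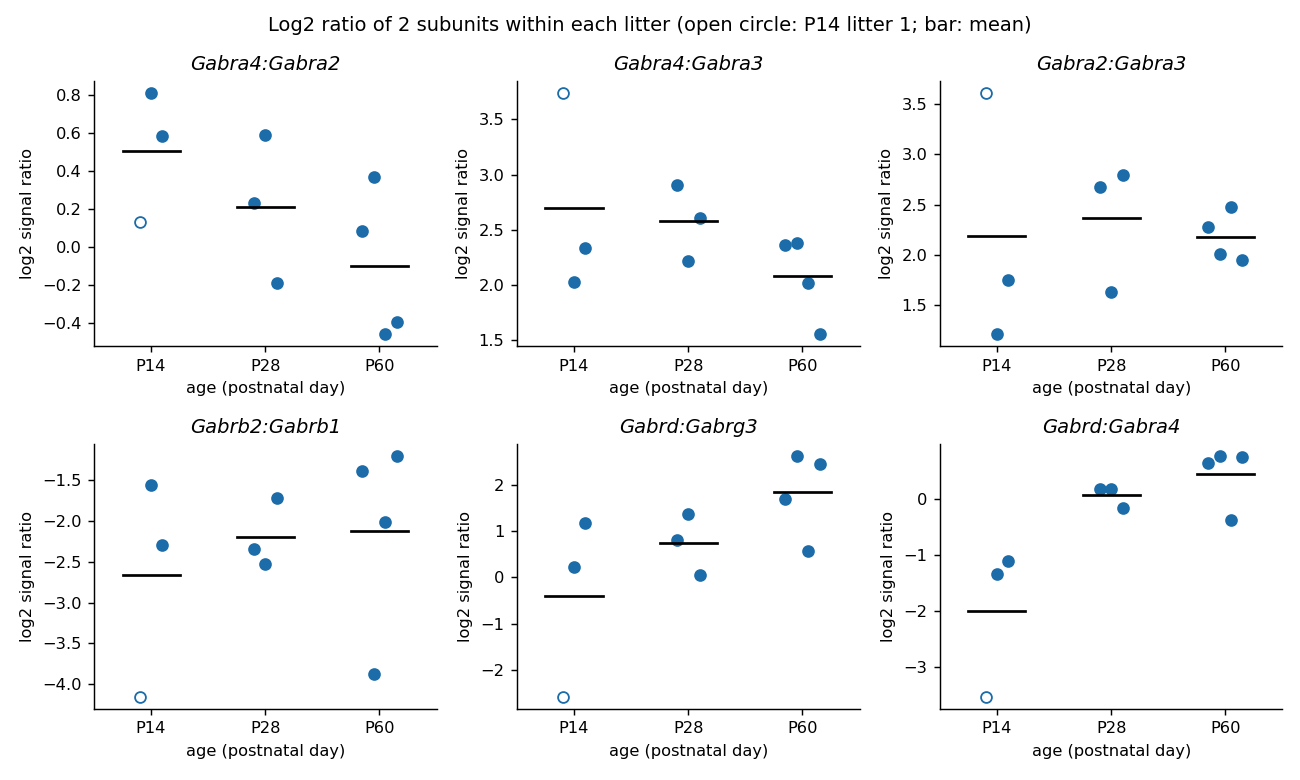
Log2 ratio of 6 pairs of subunits within each litter at P14, P28 and P60, with the mean of each age. Gabrd relative to Gabra4 runs from -3.53 to -1.10 at P14 and from -0.37 to 0.77 at P60, and P14 litter 1 is the lowest point of that pair.

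Of 12 other GABA-A subunit genes listed, 2 had a tested probe set, Gabra5 (log2 change from P14 to P60 of -0.34, adjusted p = 0.685, limma) and Gabrp (0.09, adjusted p = 0.852, limma). For the genes that anchor, assemble or move the receptor, 20 of 26 were tested, 11 were higher and 9 lower at P60, and 0 passed. Of the 11240 genes kept, 54.5% were higher and 0.489% passed. The median log2 change of the list was 0.08, against 0.05 over all genes kept, and turned to -0.13 without P14 litter 1, against 0.01. The largest differences were those of Iqsec3, an exchange factor of inhibitory synapses, at 0.81 (adjusted p = 0.133, limma), and Gphn, which encodes the scaffold gephyrin, at -0.61 (adjusted p = 0.162, limma). The second Gphn probe set gave -0.19.

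Genes for GABA synthesis, release, uptake and breakdown were lower at P60 than at P14 in 9 of the 10 tested of 12 listed. Of all genes kept, 54.5% were higher. The median log2 change of the list was -0.37, and 0 passed with all litters. Without P14 litter 1, Glul turned from -0.28 to 0.48 and Slc38a1 from -0.11 to 0.01. Glul read 6454 units in P14 litter 1 and 1093 and 1565 in the other P14 litters. Its other probe sets gave -0.006 to 0.79 with all litters. The median was -0.31 without P14 litter 1, and 3 of the 10 then passed, against 2.63% of all genes kept. Gad2, a GABA-synthesising enzyme, fell by 2.07 (adjusted p = 0.0321, limma) and Slc6a11, a GABA transporter of astrocytes, fell by 0.90 on the log2 scale (adjusted p = 0.0211, limma). Gad1, the other synthesising enzyme, rose by 1.08 (adjusted p = 0.0187, limma). With all litters the same 3 changes were -1.42, -0.65 and 0.45 and did not pass, and the second Gad2 probe set gave -0.55. The mean Gad2 signal at P60, 133 units, lay below the Bacillus gauge of chip B. Gad1 read 9459 units in P14 litter 1 and 2167 and 2939 in the other P14 litters.

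Of the genes for the GABA-B receptor, the metabotropic receptor for GABA, 1 of 5 was tested, Gabbr1 (-0.40, adjusted p = 0.292, limma; 0.32 in its other probe set). For chloride balance, which sets the direction of current through the receptor, 11 of 13 were tested, 6 were higher, or 54.5% as over all genes kept, and 0 passed with all litters. The 2 largest differences were Slc12a4, a potassium chloride cotransporter, at 0.84 (adjusted p = 0.326, limma), and Car2, a carbonic anhydrase, at 0.68 (adjusted p = 0.0936, limma). Slc12a4 read 65.4 units in P14 litter 1 against 292 and 388 in the other P14 litters; its change was 0.22 without that litter, and -0.12 in its other probe set with all litters. Car2 rose by 0.62 without P14 litter 1 (adjusted p = 0.0384, limma). It was the 1 of the 11 that then passed, against 2.63% of all genes kept. Of the genes for allosteric ligands and neurosteroid enzymes, 2 of 6 were tested, Tspo (0.38) and Dbi (-0.30), and neither passed. They were 0.25 and -0.60 without P14 litter 1.

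**Figure D4:**
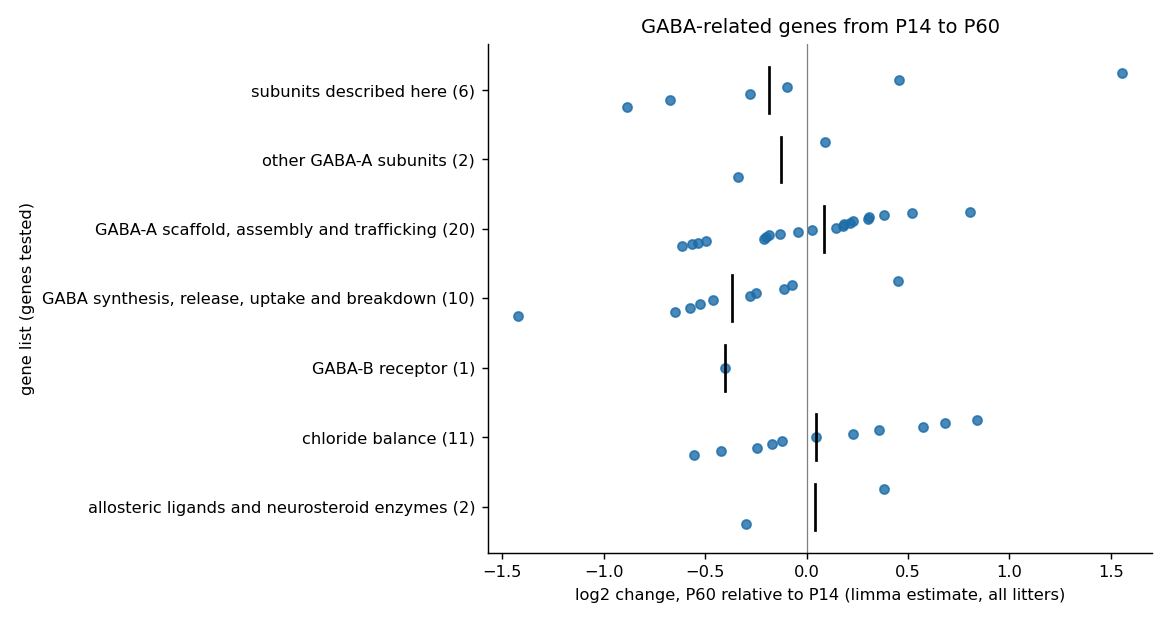
Log2 change from P14 to P60 with all litters for each tested gene of the GABA lists, with the median of each list. The genes of GABA synthesis, release, uptake and breakdown have a median of -0.37, and the 6 subunits one of -0.19. Each gene is shown by its kept probe set, and over all 16 tested probe sets of the subunits the median was -0.08.

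Markers of the labelled tissue were present. The sums below add signals of different probe sets, so the brightest ones weigh most in them. Among the interneuron markers, Gad1 read 9459 units in P14 litter 1 and 2167 and 2939 in the other P14 litters. Summed signals of 13 tested interneuron markers of 14, the cells that release GABA, were 24668 to 29772 units at P14, 28665 to 36367 at P28 and 27506 to 32488 at P60. For 10 of 11 excitatory neuron markers, the cells that carry most receptors, the sums were 26672 to 31274, 22205 to 24913 and 19326 to 27324 units. Both overlapped between P14 and P60, the excitatory sums did not overlap between P14 and P28, and 0 of their genes passed with all litters. Without P14 litter 1, 2 interneuron markers and 1 excitatory neuron marker passed for P60 against P14, against 2.63% of all genes kept. The 8 tested thalamus markers of 9, a region known to express Gabrd and Gabra4, summed to 9690 to 11524 units at P14, 8920 to 9664 at P28 and 5967 to 10572 at P60. Astrocyte markers summed to 35630 units in P14 litter 1 and to 16116 to 23112 in the other litters. Sums for 6 of 8 myelin markers were 4774 to 9883 units at P14, 9607 to 16500 at P28 and 10372 to 14645 at P60. Of these genes, 1 passed for P60 against P14 with all litters and 4 without P14 litter 1. For 3 of 5 blood markers they were 5272 to 23993, 24816 to 34303 and 17478 to 51144 units, lowest in P14 litter 1. The 4 tested oligodendrocyte progenitor markers of 6 summed to 5866 units in P14 litter 1, 12139 and 12386 in the other P14 litters, 7040 to 11154 at P28 and 4852 to 7771 at P60. Sums for 4 of 8 striatum markers were 2603 to 5049, 6056 to 7228 and 3957 to 5289 units, and for 2 of 5 choroid plexus markers 384 to 713, 924 to 1536 and 797 to 1178. Microglia (7 of 8 tested), endothelial (5 of 7) and hippocampal (6 of 8) marker sums overlapped between P14 and P60. The part of these cells and regions in the subunit values was not tested.

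The genes whose signals followed each subunit most closely over the 10 litters, by Pearson r on the same chip, are given as a description, since the arrays of a litter share its RNA quality. For Gabra4 112040_at they were Zbtb14 (r = 0.940), Klhl23 (0.933) and Shank2 (0.925), and for Gabra2 101215_at Cryzl2 (0.934), Serac1 (0.903) and Ap1ar (0.896). For Gabrd 99342_at they were Ptges2 (0.990), Gar1 (0.980) and B3gat3 (0.978), which fell to 0.832, 0.812 and 0.835 without P14 litter 1. Gabrb1 92749_at was followed by Chl1 (0.920), Gcdh (0.893) and Mrps31 (0.891), Gabrb2 101138_at by Col7a1 (0.958), Ubr3 (0.939) and Eya1 (0.922), and Gabrg3 138175_at by Lgi2 (0.926), Porcn (0.887) and Ccdc22 (0.845). These are the highest of 5237, 3954 and 2046 genes on chips A, B and C.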

How the data were processed

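V1 was dissected from litters of mice, and biotin-labelled cRNA was hybridised to the 3 chip types, per the labels. The deposited values are MAS5 signal intensities on a linear scale, per the submitters' processing notes; no MAS5 version is stated in them. Each array had a trimmed mean of about 500 (2% trimmed at each end), so arrays were used as scaled by the authors. MAS5 combines the probes of a set, and probe sets near the 3′ end and far from it can respond differently to RNA quality.

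Signals were set to log2(signal + constant), the constant being the 20th percentile of the chip type (38.6, 57.8 and 44.0 for chips A, B and C), so a fold change understates changes of dim probe sets. Array controls were left out. limma 3.58.1 in R 4.3.3 (lmFit, eBayes with trend) was fitted for each chip over all 10 litters with age only, and p-values were adjusted by Benjamini-Hochberg over the 20724 probe sets tested. Litters were taken as separate samples from the source names; every title opens with the same further litter number, whose meaning is unclear, and if litters shared material the p-values measure a technical spread. The kept probe set of a gene was a tested one on the first chip that held any, in the order A, B, C. Where that chip held several, it was the brightest of them by mean log2 signal. For Gabra4 this was 112040_at on chip B, although 166530_at on chip C was brighter. Gabra2, Gabrb2 and Gabrd, kept as 101215_at, 101138_at and 99342_at on chip A, also had brighter tested probe sets on later chips. Gabra3 entered ratios by its untested one. Ratios were tested by an exact permutation test over litters of the between-age sum of squares, which has no direction. Every member probe set is named; of the other GABA lists, genes past the threshold and the 2 largest changes from P14 to P60 are named; for likeness, the 3 genes with the highest r. The members and lists were chosen with earlier results of these data known. The code was tested on simulated data. Alternatives were other constants, no filter, quantile normalization, no variance trend, array weights, adjustment within each chip, a replicate block, leaving out each litter, a restricted set of arrays chosen after array quality had been seen and, for ratios, other probe sets. The number of arrays limits the precision.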

Additional observations from a re-analysis of the deposited data

Results flagged for a closer look

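In 24 groups of 4 P60 values examined, 3 had 1 litter farther from the rest than the 95% critical value of Dixon's test, which chance does in about 1 of 20 groups. Gabra2 131873_at was highest in P60 litter 2, at 1013 units against 655 to 691 in the other P60 litters. Gabrb1 92749_at was also highest in P60 litter 2, at 1460 units against 783 to 888. The log2 ratio of Gabrd to Gabra4 was lowest in P60 litter 3, at -0.37 against 0.65 to 0.77 in the others; without that litter the ratio's adjusted exact p was 0.0214. These are given as values.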

How the results depend on the processing

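Settings were compared for the counts of the 16 probe sets that passed, for their single changes and for the 6 ratios. Of 76 counts under an alternative, 72 were the same as with all litters, and the others were 2 for P28 against P14, 3 for P60 against P14 and 2 over the 3 ages with array weights, and 1 for P60 against P14 without P14 litter 1; leaving out 1 litter at a time gave 0 to 1 for P60 against P14. Of 912 single changes, 891 stayed on the same side of the threshold and within 1 residual SD, 15 moved further, 4 of them for Gabrd 99342_at and 166859_s_at without P14 litter 1, and 6 passed the threshold only under the alternative.

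Of 102 ratio results, 80 were the same. The log2 ratio of Gabrd to Gabra4 differed by 2.44 from P14 to P60. That ratio lost its call with the mean of tested probe sets (0.93, adjusted exact p = 0.69) and with the brightest probe sets (0.50, adjusted exact p = 0.538). With the replicate block (2.44, adjusted exact p = 0.333) and in the restricted set (1.42, adjusted exact p = 0.5), 1 pair alone could not reach the threshold. The call could therefore not be kept there. Leaving out 1 litter at a time gave 1.68 to 2.89 with adjusted exact p from 0.0214 to 0.107, and the call was kept only without P60 litter 3. The restricted set gave 0.017 for Gabra4:Gabra3, 0.76 for Gabra2:Gabra3, -1.02 for Gabrb2:Gabrb1 and -0.12 for Gabrd:Gabrg3, the last with 1 P60 litter. The mean of tested probe sets gave 0.48 for Gabra4:Gabra2 and 0.019 for Gabra4:Gabra3. The brightest probe sets, an alternative chosen after seeing the data, gave 1.38 for Gabra4:Gabra2, 0.32 for Gabra4:Gabra3 and -1.05 for Gabra2:Gabra3. The kept probe sets gave -0.61 for Gabra4:Gabra2 and -0.62 for Gabra4:Gabra3, so both turned in direction under both of these alternatives. Gabrb2:Gabrb1 turned from 0.55 to -0.14 with the mean of tested probe sets and to -0.51 with the brightest. The cause was not tested.

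The replicate block used the litter number shared across ages. Over 27 correlations of same-numbered litters between ages, r ran from -0.08 to 0.16 and exceeded 0.1 in 4, so the numbers were not taken to pair the litters, and 0 of 16 probe sets passed with the block. From P14 to P60 with all litters, tested probe sets of 1 gene differed in direction for Gabra4, Gabrb1, Gabrb2 and Gabrd. Those of Gabra2 were all lower at P60 and differed in size. The dim probe sets lie near the Bacillus gauge, and P14 has 2 litters when litter 1 is left out.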
